A study of Mus musculus with 18 samples.

Results

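The cytosolic ribosomal protein genes were taken as every gene symbol made of Rpl or Rps and a number, with an optional suffix a, x, l or l1, together with Rplp0, Rplp1, Rplp2 and Rpsa. Ribosomal S6 kinase and pseudogene symbols were left out. The rule found 83 of 24062 genes, 51 of the large (60S) and 32 of the small (40S) subunit, on 19 chromosomes. After a filter on low counts 79 of them were tested among 12140 genes, 48 of the large and 31 of the small subunit.

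The 18 RNA samples came from mouse NIH3T3 cells, an immortalised embryonic fibroblast line. The parental cells, of wild-type genotype and called WT here, were compared with 1 derived line, NIH3T3-mCherry-mTRIM21, called TRIM21 here, which carries mouse TRIM21 fused to the red fluorescent protein mCherry. The labels give neither the promoter of the fusion nor whether the line is a single clone, so a difference between the lines cannot be told apart from a difference between 2 cell populations. Cells of each line were electroporated with PBS, with 7.5 µg of bovine serum albumin (BSA) or with 7.5 µg of an antibody (IgG), using 2 pulses of 20 ms at 1400 V, and RNA was taken 16 h later. All 6 groups were electroporated, and no group shows cells without a pulse. Each group had 3 samples, whose titles carry the numbers 10, 11 and 14, and each number occurs once in every group. The labels do not say what the number stands for, nor whether the 3 samples of a group came from separate cultures, so p-values measure the spread between these samples, which may be technical.

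A ribosome is built from ribosomal RNA and one copy of nearly every ribosomal protein, and the stalk proteins Rplp1 and Rplp2 are the exception with several copies. The messages of these proteins are short and abundant, and most begin with a C followed by an unbroken stretch of C and T, the 5′ terminal oligopyrimidine (TOP) tract, through which mTORC1 and LARP1 control their translation and stability. Many mammalian ribosomal protein genes have large numbers of processed pseudogenes, so that a short read often matches several places in the genome.

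Libraries held 19509017 to 29766433 reads assigned to genes. For every 100 such reads, 69.1 to 79.1 further alignments were set aside because they matched several places. Trim21 counts, the check of the labels, were 142 to 223 in WT and 19900 to 32225 in TRIM21. The summed level of 10 fibroblast markers was high in every sample, at 19604 to 38979 CPM (counts per 1e+06 reads). The 9 markers of other cell types summed to 1.10 to 4.05 CPM. Myog had 0 counts in every sample, Epcam, Alb, Adipoq and Ptprc had 0 to 5, Pecam1 2 to 9, Cdh1 0 to 12, Cdh5 3 to 43 and Krt14 12 to 51, and 2 of the 9 passed the filter.

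The sequences around the transcription start are shown for the genes that were later found to differ by title number, because they show how the start of these messages varies within the family. RefSeq windows (GRCm38.p6) were found for 62 of the 83 genes, and 12 of the 14 genes that differed by number had one. The windows below run 5′ to 3′ from 15 bases before the annotated start to 15 bases from it, and capitals mark the longest unbroken run of C and T. Where RefSeq lists several starts the window shown is that of the first one.
Rpl35: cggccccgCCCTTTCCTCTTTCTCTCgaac
Rps15a: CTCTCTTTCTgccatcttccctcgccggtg
Rps27l: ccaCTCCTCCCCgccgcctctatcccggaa
Rpl12: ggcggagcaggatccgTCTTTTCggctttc
Rps12: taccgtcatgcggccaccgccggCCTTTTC
Rpl39l: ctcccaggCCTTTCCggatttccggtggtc
Rps25: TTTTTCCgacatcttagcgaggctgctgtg
Rps23: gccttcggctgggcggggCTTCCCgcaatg
Rps7: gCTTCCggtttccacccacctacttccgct
Rpl27: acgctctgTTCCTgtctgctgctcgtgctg
Rpl10: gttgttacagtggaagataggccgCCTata
Rps13: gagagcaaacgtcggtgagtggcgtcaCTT
These windows lie at chr2:39005117-39005146 (minus strand) for Rpl35, chr7:118116133-118116162 (minus) for Rps15a and chr9:66946071-66946100 (plus) for Rps27l. Those of Rpl12 and Rps12 lie at chr2:32961697-32961726 (plus) and chr10:23787195-23787224 (minus), and those of Rpl39l and Rps25 at chr16:10170213-10170242 (plus) and chr9:44407699-44407728 (plus). The windows of Rps23 and Rps7 lie at chr13:90923107-90923136 (plus) and chr12:28635939-28635968 (minus), those of Rpl27 and Rpl10 at chr11:101442230-101442259 (plus) and chrX:74270801-74270830 (plus), and that of Rps13 at chr7:116334176-116334205 (minus).

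Within these windows Rpl35 had the longest run of the 12, with 18 bases, and Rps15a and Rps27l had runs of 10 and 9 bases. The other 9 windows held runs of 3 to 7 bases. The runs of Rps15a, Rps25, Rps12 and Rps13 reach an edge of the window, so their full length may be greater. In the shares that follow, a gene counted if the 30-base window of any of its annotated starts held the match. Across the family, 27 of the 62 genes (43.5%) had a run of 8 or more C or T on the sense strand. Of all 27025 genes with a window 13.9% had one. On the antisense strand the shares were 4.84% and 15.3%. The letters CTTTC stood on the sense strand in 27.4% of the family and 4.76% of all genes, and on the antisense strand in 3.23% and 4.21%. The shares for CTTCC were 21% and 7.83% on the sense strand and 12.9% and 8.54% on the antisense strand. For the TATA-box letters TATAA they were 1.61% and 1.43% on the sense strand and 1.61% and 1.14% on the antisense strand. CTTTC and CTTCC can overlap each other and a run of C and T. Windows follow annotated starts, so a start placed some bases away moves the tract, and a match is a description of letters.

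Most of the family was abundant. Of the 79 tested genes 74 had a mean of 100 or more CPM, and 25 had 1000 or more. Levels per kilobase of the annotated transcript allow for length but not for sequence shared with other genes, whose reads were set aside. On this scale Rps12 of the 40S subunit had the highest level, with 4174 ± 955 CPM per kb (SD, n = 18). Rpl32 followed with 2875 ± 533, then the stalk base protein Rplp0 with 2141 ± 411, Rps15 with 2044 ± 423 and Rpl8, which lies near the peptidyl transferase centre, with 1878 ± 348 (SD, n = 18 each). Neighbours in this order overlapped within 1 SD of their means, Rps12 and Rpl32 included. The median over the 76 genes with 10 or more CPM was 911 CPM per kb.

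The lowest levels, those of Rps27, Rpl34 and Rpl30, were far from the rest. Rpl27a had 129 ± 38.5 and Rpl35a 63.2 ± 11.6 CPM per kb, while Rps27 had 3.63 ± 1.73, Rpl34 1.77 ± 0.862 and Rpl30 0.964 ± 0.44 (SD, n = 18 each). In counts, Rpl30 had 2 to 26, Rpl34 5 to 44 and Rps27 4 to 62 reads per sample. Rpl26 was listed at 0 in every sample, and so was Rpl10l, a paralogue of Rpl10 known from testis, and a count of 0 allows up to 3 counts, or 0.101 to 0.154 CPM. The other genes left untested were Rpl3l, the striated muscle paralogue of Rpl3, with 1 to 7 counts, and Rps4l with 0 to 1. The floors cover counting error only, while the ± values are SDs over the 18 samples.

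Since reads with several matches were set aside, each level is that of a gene's distinct sequence. In the median gene of the family 44.5% of all 50-base stretches of the transcript occurred in no other annotated gene, and in 51 of the 83 genes the share was under 50%. At least 1 annotated pseudogene shared such a stretch with 80 of the genes, and Rpl7a shared one with 120 of them. Rps27 had the lowest share of own 50-base stretches, 1.4%. Rps12, the highest gene, had 9.9%, and Rpl30 had 23.6%. Pearson's r of the share with the log2 level per kb was 0.098 across 79 genes, which share the same libraries and are not replicates. Levels were divided by the full transcript length, and the relation is a description. The part of shared sequence in the low values of Rpl26, Rpl30, Rpl34 and Rps27 was not tested. Annotated lengths also matter here: the shortest basic transcript annotated for Rpl5 was 2045 bases.

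**Figure D1:**
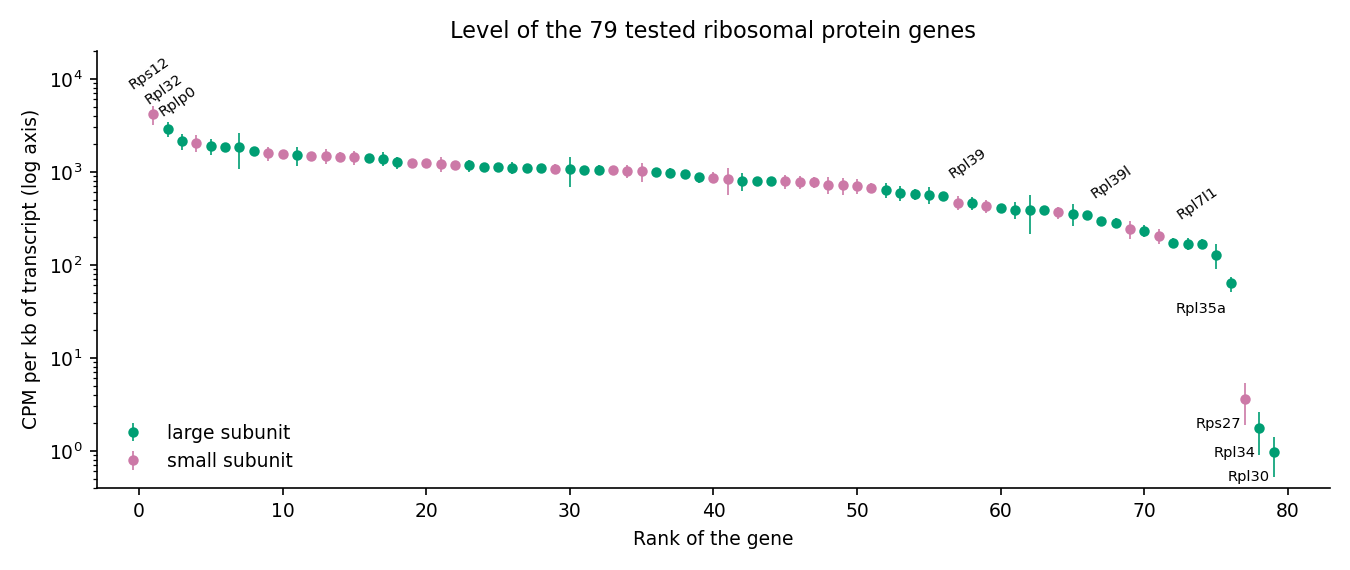
Level of the 79 tested genes in CPM per kb of transcript (mean and SD over 18 samples, log axis), ranked from highest to lowest and coloured by subunit. From Rps12 at 4174 down to Rpl35a at 63.2 the levels form a continuous slope, and Rps27, Rpl34 and Rpl30 sit below 4.

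Paralogue pairs kept the same order of counted level per kb in every sample. These levels leave out reads with several matches, and the part of shared sequence in the order was not tested. Rpl22, which also binds RNA outside the ribosome, had 1101 ± 118 CPM per kb and its paralogue Rpl22l1 169 ± 26.0 (SD, n = 18 each), a ratio of 5.68 to 8.74 across the samples. Rpl7 stood above Rpl7l1 by 6.98 to 11.7 times. Rpl39, a small protein of the exit tunnel, stood above Rpl39l by 1.31 to 2.05 times, the closest of the pairs, and Rpl39l shared no 50-base stretch with another transcript. Rps27l, a p53-responsive paralogue, had 242 ± 50.9 CPM per kb against the 3.63 of Rps27, so that Rps27l was the higher gene of its pair in every sample. Only 1.4% of the 50-base stretches of Rps27 are its own, and where in the gene its counts lie was not examined.

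Together the 83 genes took 4.85% to 7.51% of the gene counts of a sample. The share was 6.01% ± 0.579 in TRIM21 PBS, 5.61% ± 0.692 in TRIM21 BSA and 6.06% ± 0.41 in TRIM21 IgG (SD, n = 3 each). In the parental line it was 5.82% ± 0.847 in WT PBS, 6.54% ± 0.859 in WT BSA and 5.60% ± 0.554 in WT IgG (SD, n = 3 each). The ranges of all 6 groups overlapped. In bulk RNA less of a message per cell and fewer cells that hold it cannot be told apart. The highest share, 7.51%, was that of the WT BSA sample numbered 10, and the lowest, 4.85%, that of the WT PBS sample numbered 14. The WT BSA sample numbered 10 was the highest for the large and the small subunit genes, at 4.34% and 3.17%. The large subunit genes were lowest in the WT PBS sample numbered 14, at 2.83%, and the small subunit genes in the TRIM21 BSA sample numbered 14, at 1.98%, with 2.02% in the WT PBS sample.

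**Figure D2:**
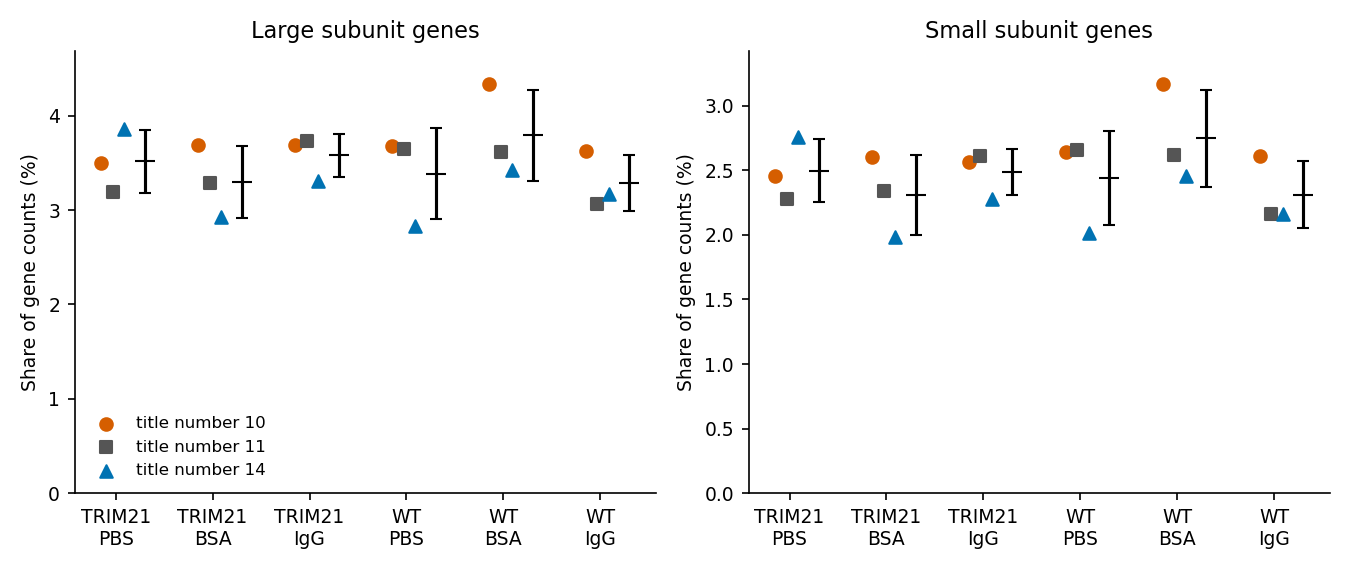
Share of gene counts (%) taken by the large and the small subunit genes in each of the 18 samples, by group and title number, with the mean and SD of each group (n = 3) as a bar. Groups overlap, the WT BSA sample numbered 10 is highest in both panels, and TRIM21 PBS is the group in which number 14 is highest.

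The family did not differ between the lines by the test. None of the 79 genes passed an adjusted p of 0.05 between the lines (edgeR quasi-likelihood test, Benjamini-Hochberg adjustment), where 6.18% of all tested genes did, and 0 of 79 had an unadjusted p under 0.05, against 21.4% of all tested genes. DESeq2 and limma-voom also called 0. The median log2 fold change over the family was -0.01, with 31 genes above 0 and 48 below, and ran from -0.06 to 0.02 with 1 sample left out. Among the genes with the smallest p were Rpl36a (log2 fold change -0.11, SE 0.074, edgeR adjusted p = 0.386) and Rpl34 (0.43, SE 0.298, adjusted p = 0.422). Within a title number the median difference between the lines was -0.12 for number 10, 0.01 for number 11 and 0.09 for number 14, with 3 samples a line and no test.

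Of the lists around the family few genes passed between the lines, where 1.39% of all tested genes were called higher and 4.79% lower in the TRIM21 line. Among 113 ribosome biogenesis genes tested 1 rose and 1 fell, with 105 of 113 estimates above 0 and a median of 0.13. At an unadjusted p under 0.05, 42 of the 113 were higher, against 9.75% of all tested genes. The TRIM21 PBS sample numbered 11 stood out, with a median log2 deviation of these genes from their means over 18 samples of 0.47. The other TRIM21 samples ran from -0.07 to 0.13 and the WT samples from -0.15 to 0.09. The line difference of this list without that sample was not tested. Polr1a, the large subunit of RNA polymerase I, was 156 ± 12.2 CPM against 136 ± 9.96 (SD, n = 9 each, log2 fold change 0.20, edgeR adjusted p = 0.0292), and Ddx10, a helicase of 40S maturation, was 97.3 ± 7.58 against 129 ± 20.6 (-0.40, adjusted p = 0.00176). Of 22 genes that control ribosomal protein messages 2 rose and 0 fell. Myc, a transcription factor of ribosome synthesis, rose by 0.26 (edgeR adjusted p = 0.0185) and Larp1, the TOP-binding repressor, by 0.24 (adjusted p = 0.0314). None of 77 mitochondrial ribosomal protein genes and none of 40 translation factor genes passed. Of the 10 fibroblast markers 1 fell and 0 rose, with 9 estimates below 0 and a median of -0.26. Thy1, a surface glycoprotein of fibroblasts, fell by 0.29 (edgeR adjusted p = 0.0207), and its part in the other values was not tested.

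Neither BSA nor the antibody gave a called change of any member. In each of the 6 treatment comparisons and the 3 interactions 0 of 79 genes passed (edgeR, adjusted p of 0.05), and the background was 0% of 12140 genes in all 9. The comparisons within a line share groups, so their values stand side by side and are not independent.

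In the TRIM21 line IgG against PBS had a median log2 fold change of -0.02 over the family and 1 gene with an unadjusted p under 0.05, against 5.61% of all tested genes. Its leading genes were the paralogues Rpl7l1 (-0.30, SE 0.117), Rpl39l (-0.24, SE 0.128) and Rpl22l1 (-0.26, SE 0.15), all at an edgeR adjusted p of 0.724. IgG against BSA had a median of 0.11, with 63 of 79 estimates above 0. It had 0 genes with an unadjusted p under 0.05, against 0.371%, and was led by Rpl27a, Rplp2 and Rps9 at 0.55, 0.57 and 0.29. That median rested on single samples. It was -0.01 without TRIM21 BSA of number 14, 0.07 without TRIM21 IgG of number 11, 0.17 without TRIM21 IgG of number 14 and 0.22 without TRIM21 BSA of number 10. BSA against PBS had a median of -0.14, with 77 of 79 estimates below 0. It had 2 genes with an unadjusted p under 0.05, Rpl7l1 and Rpl24, at -0.26 and -0.22, against 3.68%, and Rpl7a followed at -0.22. Its median was -0.04 without TRIM21 BSA of number 14, -0.06 without TRIM21 PBS of number 14 and -0.25 without TRIM21 BSA of number 10. Rpl7l1 had 234, 304 and 227 CPM after PBS, 232, 223 and 185 after BSA and 211, 197 and 212 after IgG. The values after IgG lay below those after PBS, and 1 PBS sample, number 11, stood above the others.

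In the WT line BSA against PBS had a median of 0.19, with 79 of 79 estimates above 0, and 0 genes with an unadjusted p under 0.05, against 2.49%. Rpl28 and Rps9 led at 0.27 and 0.34. The median was 0.07 without WT PBS of number 14 and 0.10 without WT BSA of number 10. IgG against BSA had a median of -0.24 with 78 of 79 estimates below 0, and 9 genes had an unadjusted p under 0.05, all lower, which is 11.4% of the 79 against 5.87% of all tested genes. That median was -0.13 without WT BSA of number 10 and -0.36 without WT IgG of number 10. The 3 with the smallest p were Rpl22l1 (-0.41, SE 0.151), Rps28 (-0.39, SE 0.153) and Rpl39 (-0.39, SE 0.161), at an edgeR adjusted p of 0.741. IgG against PBS had a median of -0.05 and 1 such gene, Rpl22l1 at -0.34, against 2.68%, followed by Rps27 and Rpl27a at -0.81 and -0.36. With 1 sample left out the small medians of IgG against PBS ran from -0.17 to 0.02 in WT and from -0.06 to 0.03 in TRIM21, so neither kept its sign. Rpl22l1 had 120, 108 and 91.0 CPM after BSA, 102, 106 and 94.9 after PBS and 88.6, 86.0 and 65.4 after IgG. Its 3 values after IgG were the lowest of the line, without overlap.

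The interaction asks whether a treatment difference was unlike in the 2 lines. For IgG against BSA 79 of 79 estimates were above 0 with a median of 0.34, and 10 genes had an unadjusted p under 0.05, 12.7% of the 79 against 3.97% of all tested genes. Rpl27a, which had the smallest p, had 1.10 (SE 0.375), Rplp2 1.23 (SE 0.527) and Rpl13 0.69 (SE 0.3), at an edgeR adjusted p of 0.843. For BSA against PBS 79 of 79 estimates were below 0 with a median of -0.34, and 4 genes had an unadjusted p under 0.05, against 6.51%, with Rpl24 and Rpl7a among them at -0.39 and -0.36. For IgG against PBS the median was 0.03 and 0 genes did, against 1.82%, with Rpl27a at 0.77, Rpl7l1 at -0.31 and Rplp2 at 0.83. Estimates of 79 genes in 1 direction are no count of 79 independent results, because the genes moved together within samples, as described next. With 1 sample left out the medians ran from 0.23 to 0.44 for IgG against BSA, from -0.45 to -0.21 for BSA against PBS, with the smallest shift without WT PBS of number 14, and from -0.05 to 0.13 for IgG against PBS. With an offset for transcript length and the title number as a block the medians of IgG against BSA fell to -0.07 in WT and 0.14 in the interaction, and that of BSA against PBS in the interaction to -0.21.

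**Figure D3:**
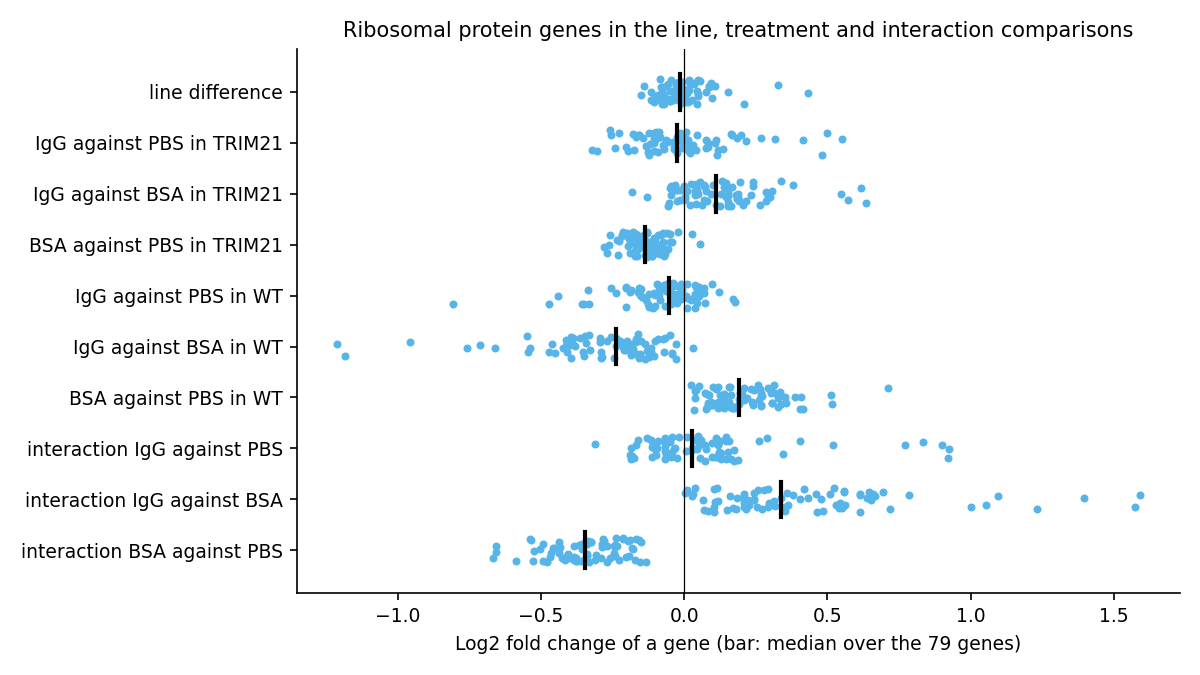
Log2 fold change of each of the 79 tested genes (points) in the line, treatment and interaction comparisons, with the median as a bar. The line difference is centred at -0.01. The widest shifts are those of 2 interactions, with medians of 0.34 and -0.34, which involve the BSA groups of both lines.

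Members rose and fell together from sample to sample within a group. The first principal component of their deviations from the group means held 71.1% of the variance, against 27.8% over all 12140 genes. The median correlation of a gene with the median of the other members was 0.794 across the 18 deviations. Of the 79 genes 71 were above 0.5 and 0 were below 0. These correlations describe points from shared libraries. Rpl13a followed the rest most closely (0.977) and the 60S proteins Rpl23a (0.230), Rpl31 (0.270) and Rpl24 (0.288) least.

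The size of the movement differed widely between members. The SD within groups, on the log2 scale, was 0.0991 to 0.752 over the 76 genes with 10 or more CPM, with a median of 0.231. Rpl4 was the steadiest over the 18 samples, with a mean of 2865 CPM and a coefficient of variation of 6.20%. The widest were Rpl36 (45.2%), the stalk proteins Rplp1 (42.0%) and Rplp2 (35.6%), and Rps29 (31.3%). Rplp1 and Rplp2 form the flexible stalk that recruits translation factors. Genes of higher GC content and of shorter transcripts had somewhat wider spread (Pearson's r = 0.326 and -0.318 across 76 genes of the same libraries, as a description). By rank these relations were weaker, with Spearman's rho of 0.229 and -0.279. The share of own 50-base stretches had a rho of 0.2275 and a Pearson's r of 0.0695. Rpl36, with 60.8% GC over 383 bases, was the most GC-rich of them.

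Rplp1 had 632, 593 and 1346 CPM in TRIM21 PBS, 1121, 528 and 775 in TRIM21 BSA and 1782, 1219 and 767 in TRIM21 IgG, in the order of numbers 10, 11 and 14. In the WT line it had 1296, 952 and 295 in PBS, 1287, 794 and 1292 in BSA and 813, 388 and 793 in IgG. The 3 samples of a group lay far apart, most of all in WT PBS, and no treatment stood apart. Rplp2 followed it, from 187 CPM in the WT PBS sample numbered 14 to 815 in the TRIM21 IgG sample numbered 10. Rpl36 had its lowest and highest values, 46.0 and 286 CPM, in the same 2 samples, and so did Rps29 with 160 and 495. The WT IgG sample numbered 11 was the second lowest for these 4 genes, so their order did not follow the title number. The other stalk gene, Rplp0, had 2908 ± 558 CPM and Rpsa, the laminin receptor protein of the 40S subunit, 1726 ± 197 (SD, n = 18 each).

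**Figure D4:**
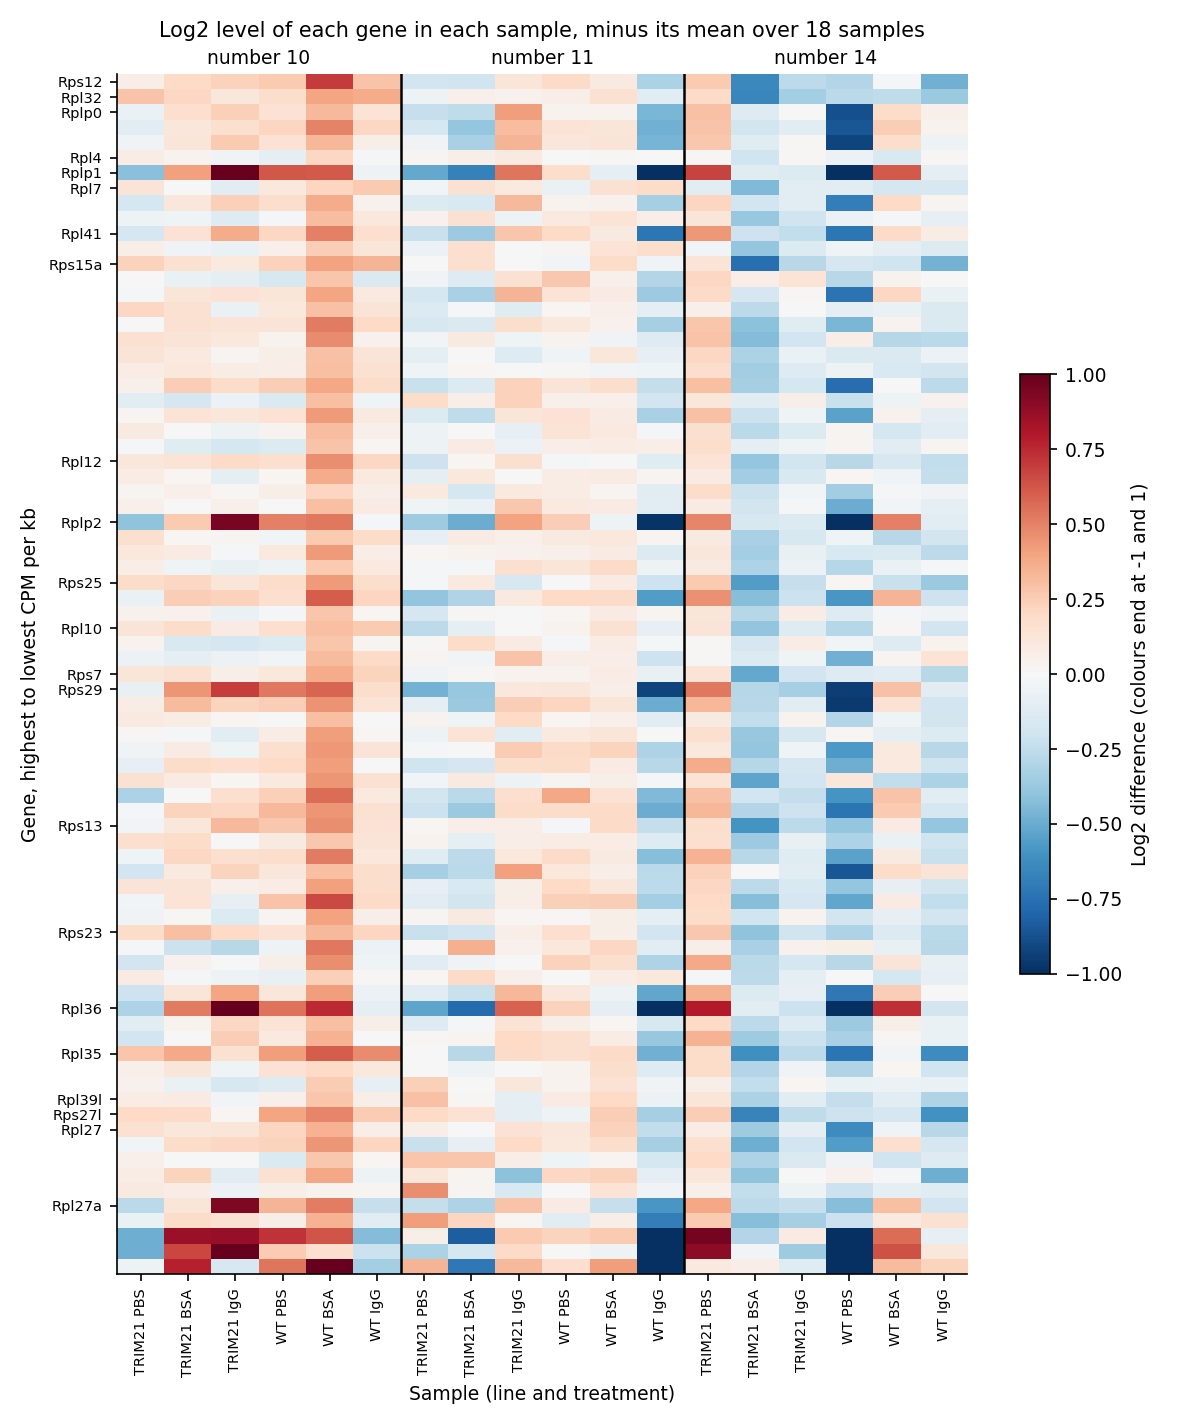
Log2 level of each tested gene in each sample minus the gene's mean over 18 samples, with samples ordered by title number and genes by CPM per kb (the genes called by number and a few others are named). Columns tend to have 1 colour from top to bottom, with WT BSA of number 10 red throughout (79 of 79 genes above their mean) and TRIM21 BSA of number 14 blue (2 of 79 above), and rows such as Rplp1, Rplp2 and Rpl36 are the most intense.

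By title number the members differed. In samples numbered 10, 11 of 79 genes were higher than in the others and 0 lower (edgeR quasi-likelihood test with the groups as terms, adjusted p of 0.05), 13.9% against 3.39% of all tested genes called higher and 2.13% called lower. The median was 0.20, with 73 of 79 estimates above 0, against 0.00 over all tested genes. In samples numbered 14, 11 of 79 were lower and 0 higher, against 4.69% of all tested genes called lower and 3.48% called higher, and the median was -0.15 with 77 of 79 estimates below 0. The 2 comparisons share samples, so the one partly sets the other. In samples numbered 11, 0 of 79 were called, where 2.54% of all tested genes were, and 2 had an unadjusted p under 0.05, Rpl24 at 0.12 and Rps29 at -0.39, against 21.2%, with Rpl39l next at 0.11.

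Rpl35 (chromosome 2, 39001580 to 39005624, minus strand, GRCm38), a 60S protein beside the exit tunnel, had the largest change. It had 360 to 492 CPM in the 6 samples numbered 10 (median 427), 232 to 370 in those numbered 11 (median 343) and 195 to 368 in those numbered 14 (median 241). Number 10 and number 14 overlapped through a single sample, TRIM21 PBS of number 14. The log2 fold change was 0.58 for number 10 (SE 0.109, edgeR adjusted p = 0.00682, higher in 6 of 6 groups) and -0.52 for number 14 (SE 0.114, adjusted p = 0.0162, higher in 1 of 6). The rise in number 10 passed in each of 7 other settings and with each of the 18 samples left out, and the fall in number 14 lost its call with 2 of the 18.

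The 40S proteins made up 7 of the 11 genes that rose in number 10. Rps12 had 2105 to 3273 CPM in number 10 (median 2383) and 1289 to 2416 in number 14 (median 1661), with a log2 fold change of 0.43 (SE 0.1, edgeR adjusted p = 0.0198). Rps15a, Rps23, Rps25, Rps13 and Rps7 rose by 0.36, 0.34, 0.32, 0.32 and 0.26. The paralogue Rps27l rose by 0.39 (SE 0.0893, adjusted p = 0.0197) and was 119 to 165 CPM in number 10 and 74.0 to 140 in number 14. The 60S genes were Rpl35, Rpl32 at 0.38, Rpl12 of the stalk base at 0.32 and Rpl10, which joins the 60S subunit late, at 0.27. Of the paralogue pairs, Rps27l and Rpl10 thus passed, and their partners Rps27 and Rpl10l did not pass or were not tested. The difference between the partners was not tested. These calls were less steady than that of Rpl35. Of the 18 samples left out in turn, 2 ended the call of Rpl32, 4 that of each of Rps12, Rps27l and Rps15a, 5 that of Rpl12, 10 that of Rpl10, 11 that of Rps25 and 12 that of each of Rps23 and Rps13.

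In number 14 the 11 genes that fell were Rpl35, Rps15a, Rpl32, Rps27l, Rps12, Rps13, Rpl27, Rpl12, Rpl7, Rps7 and Rpl39l. Rps15a had 548 to 1012 CPM in number 14 (median 787) and 994 to 1223 in number 10 (median 1090), and fell by 0.43 (SE 0.0886, edgeR adjusted p = 0.0136). Rpl32 had 927 to 1665 CPM in number 14 and 1582 to 1924 in number 10, and fell by 0.42 (SE 0.0839, adjusted p = 0.0117). In both genes the overlap again came from the TRIM21 PBS sample numbered 14. Rpl7 had 1419 to 1792 CPM in number 14 and 1792 to 2302 in number 10, and fell by 0.27 (SE 0.0662, adjusted p = 0.0236), with number 14 lower in 6 of 6 groups and the ranges just apart. Rpl27 and Rpl39l fell by 0.32 and 0.24 and were likewise lower in 6 of 6 groups. The call in number 14 was lost with 1 of the 18 samples left out for Rps15a and Rpl32, 2 for Rpl27, 3 for Rps27l, 5 for Rpl7, 10 for Rps13 and Rps7, 12 for Rpl12 and 14 for Rps12. Rpl36, Rplp1 and Rplp2 had log2 fold changes of 0.55, 0.51 and 0.42 in number 10 (SE 0.265, 0.25 and 0.206) and were not called.

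**Figure D5:**
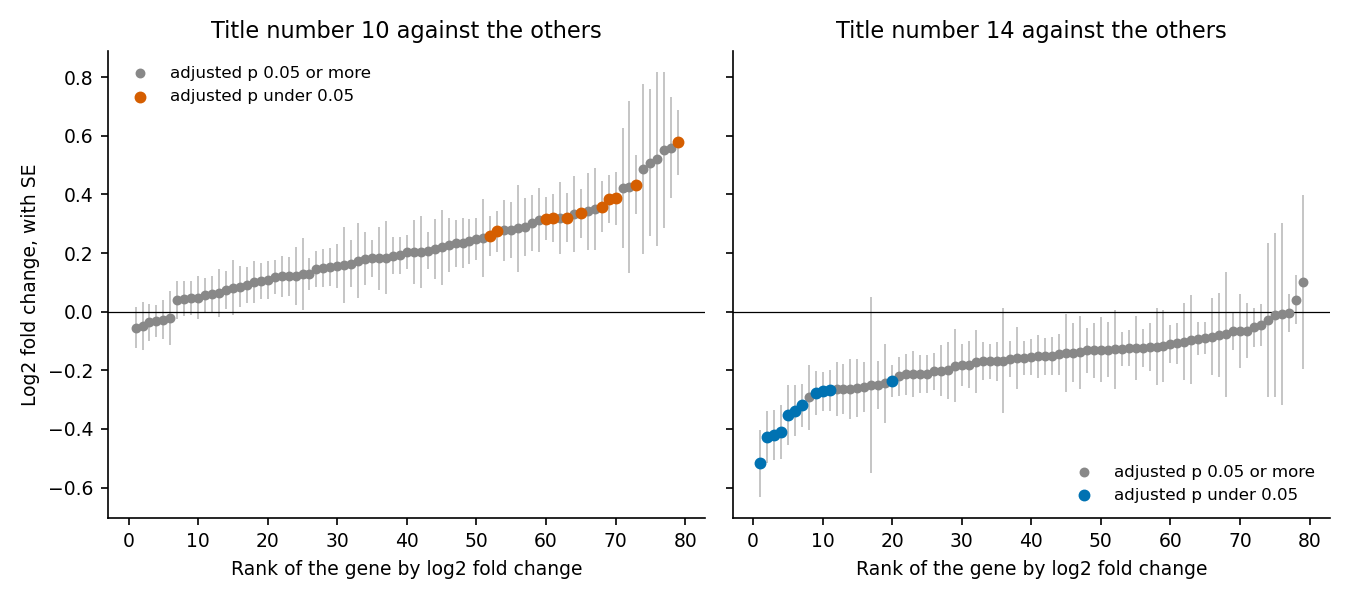
Log2 fold change with SE of each of the 79 tested genes for samples numbered 10 (left) and 14 (right) against the others, ranked, with genes at an adjusted p under 0.05 in colour. In the left panel 73 genes lie above 0 and 11 are called, and in the right panel 77 lie below 0 and 11 are called.

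The pattern by number had exceptions in the TRIM21 line. Number 10 against the others had a median over the family of 0.30 in WT and 0.11 in TRIM21, and number 14 had -0.28 and -0.09; the difference between the lines was not tested. In TRIM21 PBS the sample numbered 14 was the highest, with 69 of 79 genes above the mean of the other 2 samples, while in the other 5 groups 5 to 26 genes were. The TRIM21 PBS sample numbered 10 was slightly below the other 2 (median -0.05, 32 of 79 genes above). In TRIM21 IgG number 11 had a median of 0.11 with 66 of 79 genes above the other 2, and number 10 had 0.09 with 53 of 79. The share of gene counts was 5.95% to 7.51% in number 10, 5.23% to 6.34% in number 11 and 4.85% to 6.62% in number 14. Reads assigned to no counted feature were 13.1% to 17.0% of uniquely placed reads in number 10. They were 15.04% to 18.3% in number 11 and 15.2% to 18.8% in number 14. The lowest value was in WT BSA of number 10 and the highest in WT PBS of number 14. The part of these reads in the result was not tested.

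The number of genes called rested on single samples. Without the TRIM21 PBS sample numbered 14 the count was 29 for number 10 and 21 for number 14. Without the TRIM21 BSA or the WT IgG sample numbered 10 the count for number 10 was 1, and without the WT PBS or the WT BSA sample numbered 10 it was 2. For number 10 it was 21 without WT PBS of number 11, 7 without TRIM21 BSA of number 14 or TRIM21 IgG of number 10, 6 without WT BSA or WT IgG of number 11 or WT IgG of number 14, and 5 without WT BSA of number 14. For number 14 it was 0 without the WT BSA sample numbered 14, 2 without TRIM21 BSA and 4 without WT IgG of that number, 5 without TRIM21 BSA or WT IgG of number 10, 6 without WT BSA of number 11 and 7 without WT PBS or WT BSA of number 10. The medians kept their sign in each of these, at 0.16 to 0.26 for number 10 and -0.24 to -0.11 for number 14. With an offset for transcript length added to the same model, which already holds the number as a term, the medians fell to 0.11 and -0.09.

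Other genes of the translation machinery were also called by number, to be read against the 4.69% of all tested genes called lower in number 14 and the 3.39% called higher in number 10. Among 77 mitochondrial ribosomal protein genes 18 (23.4%) fell and 0 rose in number 14 (median -0.15), and 9 (11.7%) rose and 0 fell in number 10 (median 0.13). Mrpl41 was 39.5 ± 3.89 CPM in number 10 (SD, n = 6) against 30.5 ± 5.82 in the others (SD, n = 12). Of 113 ribosome biogenesis genes 19 (16.8%) fell and 0 rose in number 14 (median -0.11), led by Mrto4, Nop10 and Nhp2 at -0.41, -0.39 and -0.38. In number 10, 7 (6.19%) rose, nearer to the background, and 1 fell. Nucleolin (Ncl), that gene, fell by 0.39 to 788 ± 70.5 CPM (SD, n = 6) against 1037 ± 142 (SD, n = 12). Of 40 translation factors 6 (15%) fell and 1 rose in number 14, with Naca, which meets the nascent chain at the exit tunnel, at -0.29 and Eif5b, which joins the subunits, at 0.34. In number 10, 2 rose and 2 fell, 5% each, near the 3.39% and 2.13% of all tested genes. Of the 22 control genes, Cnbp, which binds TOP messages, rose by 0.26 in number 10 and fell by 0.24 in number 14. Ribosomal genes outside the naming rule did likewise where called: Rpl36al rose by 0.21 in number 10 and fell by 0.25 in number 14, and Rps3a1 fell by 0.23 in number 14. Of the 10 fibroblast markers 2 rose and 0 fell in number 10, Fn1 by 0.56 and S100a4 by 0.34, with 4 of 10 estimates above 0 and a median of -0.04. In number 14, 4 rose, led by Col3a1 at 0.60, and 0 fell, with a median of 0.34. Of the 2 tested markers of other cell types Cdh5, an endothelial cadherin, fell by 0.86 in number 14, from 0.903 to 0.482 CPM. The part of these markers in the result was not tested.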

How the data were processed

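The authors deposited 1 table of raw read counts per gene symbol for each of the 18 samples, from strand-specific polyA-enriched libraries per the labels' protocols. STAR 2.5.1b, HTSeq 0.6.0 and build mm10 are named in the submitters' processing notes. Reads with several alignments form a line of their own at the end of each table and were left out of the gene counts here, as were ambiguous and unassigned reads.

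Groups came from the line and treatment labels, 3 samples each. Counts were fitted with edgeR 4.0.16 in R 4.3.3 (filterByExpr at its defaults of 10 reads in enough samples and 15 in all, TMM factors of 0.977 to 1.03, quasi-likelihood test, 1 mean per group, Benjamini-Hochberg adjustment over 12140 genes, threshold 0.05). Title number comparisons added the number to the groups. CPM is counts per 1e+06 reads. Transcript length, GC content and shared 50-base stretches came from GENCODE M21 transcripts, with 22750 symbols matched directly, 935 through an older symbol and 377 unmatched. The length is that of the shortest basic coding transcript of the best APPRIS rank. Promoter windows came from RefSeq.

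Samples of a group differed by a chi-square of 10.8 to 84.1 per degree of freedom, more than sampling noise. The procedure was run on simulated data, with changes set in chosen genes and no other title number effect. Their spread was estimated with the number as a term, which the line and treatment fits leave out. A number effect under those fits was not simulated. Alternatives were DESeq2 1.42.0 (size factors and Wald test), limma-voom 3.58.1, other filters, the title number as a block, offsets for GC content and length, and leaving out samples.

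Genes were named by a rule: the 5 highest and 5 lowest members per kb, paralogue pairs and stalk genes, the 10 largest called changes or else the 3 smallest p-values of a comparison, and up to 3 called genes of each other list. A few genes under the rule are not reported here. Rps7 and Rpl39l were the remaining called members, and the members described for their spread were chosen after their values were seen. The members, lists and tests were chosen with earlier results of these data known.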

Additional observations from a re-analysis of the deposited data

Results flagged for a closer look

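The WT BSA sample numbered 10 stood apart from the other 5 samples of that number. Its cytosolic ribosomal protein genes took 7.51% of the gene counts, and the next highest sample numbered 10 took 6.33%, a gap of 0.761 of the whole range where 0.625 is the 95% limit of Dixon's test for 6 samples. The rule was applied to the shares of 3 title numbers and 2 lines, and chance flags about 1 in 20 such sets. Among the samples of the WT line the same sample was also the highest and was not flagged, with a gap of 0.446 where the limit is 0.493. All 79 tested genes were above their mean over 18 samples there, with a median of 0.38 on the log2 scale. Its reads assigned to no counted feature were 13.1% of uniquely placed reads, the lowest of the 18 samples. Without it the count of genes higher in number 10 was 2 in place of 11, and the median over the family was positive in that fit too.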

How the results depend on the processing

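The count of 0 called members in the line, treatment, interaction and number 11 comparisons was 0 under each other setting run and with each sample left out. For number 10 the count of 11 became 17 with the DESeq2 Wald test, 22 with the GC offset and 7 with the length offset, where the model holds the number already. For number 14 the 11 became 20 with the Wald test and 21 with the GC offset. Leaving out 1 sample gave 1 to 29 and 0 to 21. The median of the interaction of IgG against BSA moved from 0.34 to 0.14 with the block and length offset together, and the cause was not tested. The 2 together also turned the sign of the small medians of the line difference (0.01), IgG against PBS in TRIM21 (0.02) and in WT (0.06), its interaction (-0.03) and, from the offset alone, number 11 (0.01), none of them called. Over all genes, the 750 called between the lines became 1462 with the block, 2442 with the block and GC offset and 1704 with the block and length offset.

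Whether title numbers pair the samples was checked by the correlation of deviations from group means. Of 45 same-number pairs 32 were above 0.1 (mean 0.218, lowest -0.323), and pairs of different numbers had a mean of -0.109. The labels state no pairing and not every pair was above 0.1, so the block was not adopted. That 16 of 18 samples were closest to their own number is a hint from the data, not the design. With the replicate block 0 members were called in each line, treatment and interaction comparison. Members with an unadjusted p under 0.05 went from 9 to 23 for IgG against BSA in WT, from 10 to 25 in its interaction and from 4 to 15 in the interaction of BSA against PBS. The share of gene counts without mitochondrially encoded genes was not run, because none of the 13 matched a symbol. Depth limits Rpl30, Rpl34 and Rps27, with 2 to 62 counts a sample.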
